A study of Mus musculus with 16 samples.

Results

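RNA of unstimulated mouse monocytes with and without NFAM1 was compared after 6 and 24 h in culture. The comparison takes the 8 unstimulated libraries among the 16 of the series, 4 whose title starts with KO (NFAM1-/-) and 4 whose title starts with WT (NFAM1+/+), with 2 of each genotype at each time. NFAM1-/- mice carry a deletion of exons 2 and 3 of Nfam1, made with Cas9 in C57BL/6NTac zygotes, and both genotypes came from crosses of heterozygous mice; the labels give the strain as C57BL/6. The cells received neither IFN-γ nor CD40L, and all 8 libraries share the culture in a 96 well plate. The labels name the cells PBL Monocyte, whereas the study's methods isolate mouse monocytes from bone marrow. The 16 libraries, 8 of each genotype, came from monocytes of 4 NFAM1+/+ and 6 NFAM1-/- mice, so libraries of the series share animals, and no source says which. Each p-value covers only the spread between libraries and treats them as independent.

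NFAM1 is a transmembrane receptor whose cytoplasmic tail carries an ITAM, a pair of tyrosines that Src-family kinases phosphorylate and that then recruit the kinase Syk. Receptors of this kind feed calcium and calcineurin, which activate NFAT, and an adaptor complex with MALT1, which activates NF-kB. In monocytes NF-kB drives genes for TNF, IL-1 and chemokines together with its own inhibitors, and short-lived transcription factors such as EGR1 and NR4A1 report recent signaling.

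Monocytes titled NFAM1-/- had lower levels of the chemokine genes Ccl3 and Ccl4, the cytokine genes Tnf and Il1b, the NF-kB inhibitor genes Nfkbia and Tnfaip3 and the immediate early genes Egr1 and Nr4a1, and higher levels of the chemokine receptor genes Ccr1 and Ccr2; most other members of their gene lists did not pass the test. Over both times, with time as a block, 189 of 12015 genes tested were lower (1.57%) and 151 were higher (1.26%) at a Benjamini-Hochberg adjusted p under 0.05 in limma's moderated test. Most changes were small. The median gene among the 189 was 1.33-fold lower and the median gene among the 151 was 1.31-fold higher. With a change of at least 2-fold also required, 6 genes remained lower (0.0499%) and 4 higher (0.0333%). The 6 were Dnah12, Rasgrp1, Ccl4, Sorbs3, Acod1 and Bcl2a1a, and the 4 were Hepacam2, Gm45540, Ndnf and Xkrx, of which the last 3 had a mean below 5 CPM (counts per 1e+06 reads of the scaled library). In Xkrx the NFAM1+/+ libraries at 6 h held 4 and 0 reads, so its fold change is not given.

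These counts rest on how the spread of each gene was modelled and on 1 of 2 conflicting labels. The test let the expected spread follow a gene's level, an option of limma that was chosen here and is not its default. When the same expected spread was used for every gene, no gene passed (0 lower and 0 higher, lowest adjusted p = 0.0519 in limma, 1680 genes at an unadjusted p under 0.05), whereas voom weights from the recovered reads with no such trend, as voom is usually run, gave 236 lower and 181 higher genes, 185 and 146 of them among the 189 and 151. Without the term for time 0 genes passed in limma (242 at an unadjusted p under 0.05).

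The title and the genotype tag disagree for 2 of the 4 libraries of 24 h, library 44 (title WT, tag KO) and library 46 (title KO, tag WT). Nfam1 was at 432 and 408 CPM in the 6 h libraries titled WT and at 299 and 321 CPM in those titled KO. At 24 h Nfam1 was at 463 (library 44) and 495 CPM in the libraries titled WT and at 441 and 391 (library 46) CPM in those titled KO. The libraries thus separate by title at both times, by a smaller step at 24 h, and by tag they interleave. Reads were counted over the whole gene, which keeps the undeleted exons, so this level does not test the deletion. Over both times, which includes 24 h values that bore on the choice of the title, Nfam1 fell by 0.32 on the log2 scale (SE 0.06, adjusted p = 0.0189 in limma). At 6 h the fall was 0.44 (adjusted p = 0.0288) and at 24 h the difference was -0.20 (SE 0.07, adjusted p = 0.232).

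Nr4a1, the orphan nuclear receptor needed for Ly6C-low monocytes, was at 273 (library 44) and 290.3 CPM in the 24 h libraries titled WT and at 138 and 129.8 (library 46) CPM in those titled KO. Ccl4, a chemokine that attracts leukocytes, was at 24.9 and 23.2 CPM against 12.4 and 9.77 CPM. Both genes separate the 24 h libraries by title and neither does by tag. Genes that passed at 6 h, where labels do not conflict, were also read at 24 h. Of the 85 such genes, 63 did not overlap at 24 h in the same direction by title, and 7 did so by tag. The 85 passed in a fit grouped by title, whose spread includes that within titles at 24 h. That choice favours the title, so these counts are no independent check. Over all genes tested and in either direction, the 24 h libraries did not overlap for 5524 genes by title (46.0%) and for 3017 genes by tag (25.1%). With the tag in place of the title, 0 genes passed over both times in limma (592 at an unadjusted p under 0.05). At 24 h alone 1 gene did, Ighv1-18, lower in the libraries tagged KO. With libraries 44 and 46 left out, 107 genes were lower and 65 higher over both times, and 95 and 55 of these were among the 189 and 151. Because the titles were preferred partly on Nfam1, Nr4a1 and Ccl4, the 24 h values of these 3 genes are no independent evidence.

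**Figure D1:**
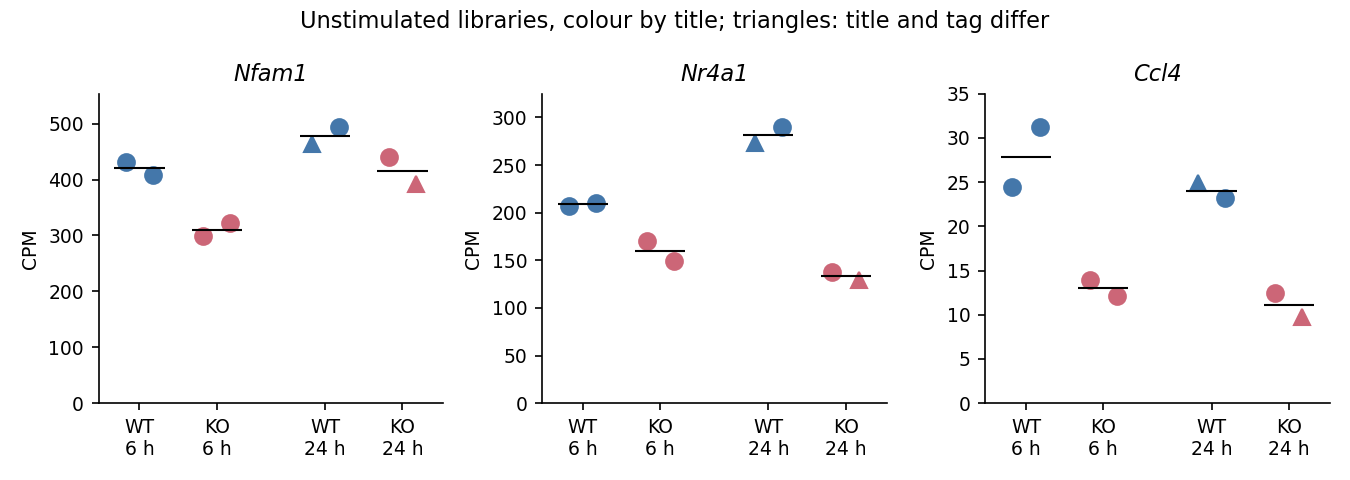
CPM of Nfam1, Nr4a1 and Ccl4 (vertical axes, from 0) in each of the 8 unstimulated libraries, grouped on the horizontal axis by title genotype and time; bars are means of 2 libraries and triangles are the 2 libraries whose title and tag differ. At 24 h both triangles lie with the library of the same title, Nr4a1 at 273 CPM beside 290.3 and at 129.8 CPM beside 138.

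The reads on the listed genes ran from 48295939 to 88514341 per library. Replicates differed by 25.5 to 34.4 times the variance that sampling of reads alone gives, on average per gene, so no pair lay within sampling noise. All 10 monocyte markers were in the table, and their summed level was 23070 and 24460 CPM in WT against 24690 and 22560 CPM in KO libraries at 6 h, and at 24 h lower in both KO libraries (28550 and 26690 CPM against 30610 and 30460). At 6 h the summed markers of other cells overlapped between genotypes, except those of erythroid cells and platelets, which were lower in KO (9.71 and 14.7 CPM against 15.9 and 22.6). At 24 h several sums were higher in both KO libraries, for 18 neutrophil markers (1716 and 2019 CPM against 1407 and 1477), for 9 B cell markers (228 and 228.3 against 145.9 and 154.9) and for 16 dendritic cell markers (490.2 and 541 against 344 and 416). T cell markers, 8 of them, summed to 32.4 and 48.3 CPM against 22.6 and 26.6, and NK cell markers to 35.9 and 37.5 CPM against 23.4 and 29.4. Over both times Mmp8 of the neutrophil, Ighm of the B cell, Flt3 of the dendritic cell and Siglecf of the mast cell, basophil and eosinophil markers rose, Ccr2 rose and Cd14 fell among the monocyte markers, and 0 of the 5 T cell, 2 NK cell, 6 erythroid and platelet and 1 sex-linked genes tested passed. Markers of erythroid cells and platelets were again lower in both KO libraries at 24 h (19.8 and 8.14 CPM against 26.9 and 20.5), and those of mast cells, basophils and eosinophils overlapped. At 24 h alone 2 neutrophil, 1 B cell and 4 dendritic cell markers passed as higher, and 1 monocyte marker passed as lower. Over all genes tested 1.26% rose and 1.57% fell over both times, and 0.990% rose and 1.30% fell at 24 h. The part of these cells in the results was not tested. In bulk RNA a cell type that is more or less frequent and a gene that is more or less expressed per cell cannot be told apart.

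**Figure D2:**
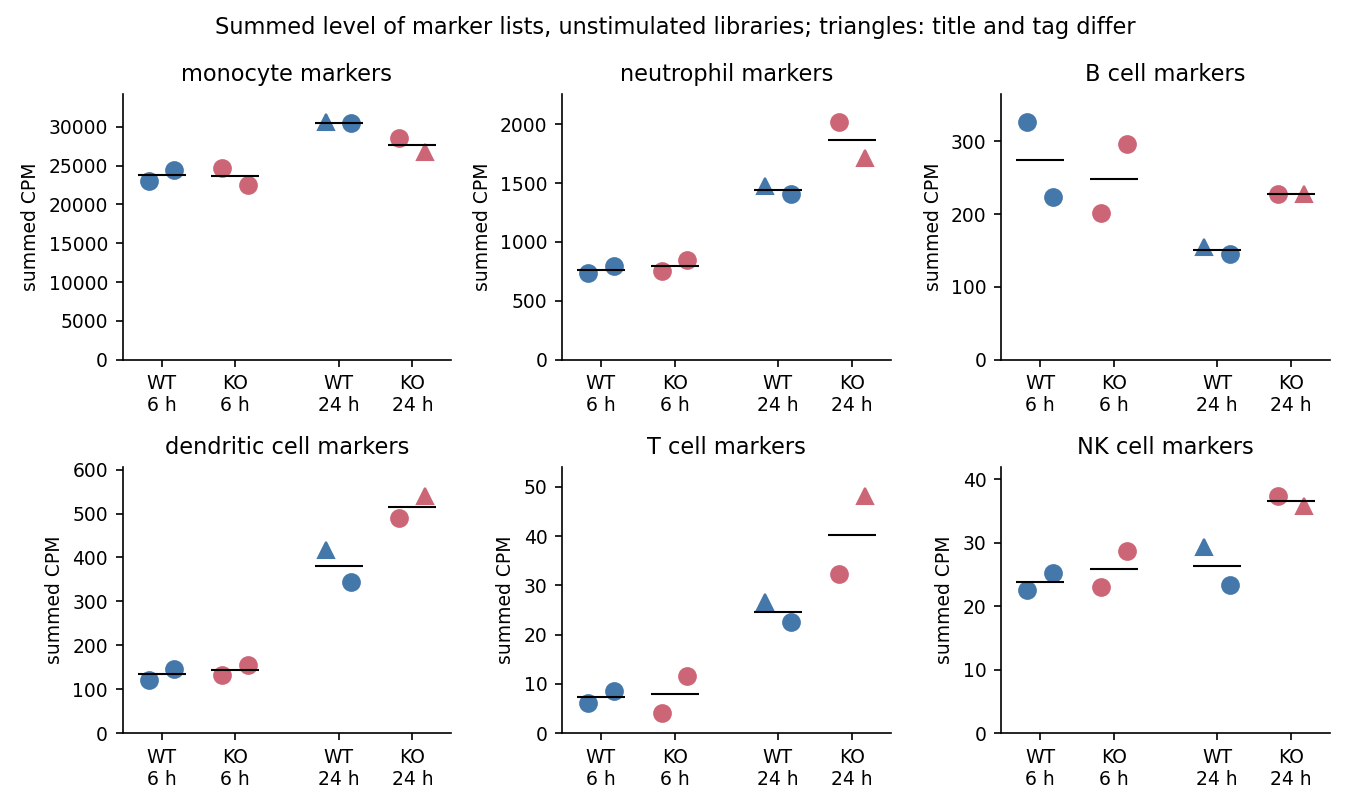
Summed CPM of 6 lists of cell type markers (vertical axes, from 0) in each unstimulated library, by title genotype and time on the horizontal axis; bars are means of 2 libraries and triangles are the libraries whose title and tag differ. Neutrophil markers overlap at 6 h (733 to 796 CPM in WT, 754 to 843 in KO) and do not at 24 h.

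Chemokine ligand genes had the lowest median of all the gene lists. Of 17 chemokine ligand genes tested, 4 fell, 0 rose and the median log2 fold change was -0.40, against 0.0014 over all genes. Over all genes tested 1.57% were lower and 1.26% higher. Ccl4 was at 24.4 and 31.3 CPM in NFAM1+/+ and at 13.9 and 12.1 CPM in NFAM1-/- monocytes at 6 h. At 6 h, where no label conflicts, the fall was 1.09 (SE 0.15, adjusted p = 0.0116 in limma). The SE and adjusted p, unlike the fall, also use the spread of the 24 h libraries grouped by title. Over both times, which includes 24 h values that bore on the choice of the title, Ccl4 fell by 1.11 on the log2 scale (SE 0.10, adjusted p = 0.000599 in limma). Ccl3, a ligand of CCR1, was at 34.0 and 37.4 CPM against 27.3 and 23.9 CPM at 6 h, and at 58.7 and 53.6 CPM against 40.2 and 31.6 CPM at 24 h, a fall of 0.57 (SE 0.09). The neutrophil attractant Cxcl2 fell by 0.61 (SE 0.11) and Cxcl16, a membrane-bound chemokine, by 0.40 (SE 0.07).

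Among 20 chemoattractant receptor genes 2 rose and 2 fell, against 1.26% and 1.57% of all genes tested. Ccr1, the receptor of CCL3, was at 25.2 and 22.8 CPM in NFAM1+/+ and at 43.0 and 48.5 CPM in NFAM1-/- monocytes at 6 h, and at 31.9 and 32.3 against 51.9 and 63.6 CPM at 24 h. Ccr1 rose by 0.89 (SE 0.08, adjusted p = 0.000356, the lowest of the comparison and shared with Sdc4 and the membrane metalloproteinase gene Mmp14). Ccr2, which draws Ly6C-high monocytes out of the bone marrow, rose by 0.32 (SE 0.05) from a far higher level, 1443 and 1392 CPM against 1836 and 1746 CPM at 6 h. Ccrl2, an atypical receptor that binds chemerin without signaling, fell by 0.77 (SE 0.14), and Cmklr1, the signaling receptor of chemerin, fell by 0.64 (SE 0.12).

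Cytokine genes that passed all fell, 4 of 30 tested against 1.57% of all genes, and the median of the list was -0.18. Tnf was at 224 and 244 CPM against 164 and 132 CPM at 6 h, and at 118 and 128 CPM against 78.7 and 67.1 CPM at 24 h. The fall in Tnf was 0.71 (SE 0.08, adjusted p = 0.00119 in limma) with log2 fold changes of -0.67 at 6 h and -0.76 at 24 h. Il1b, the precursor of IL-1β, was at 324 and 307 CPM against 263 and 216 CPM at 6 h, and at 117 and 112 CPM against 55.1 and 32.7 CPM at 24 h. Il1b fell by 0.92 (SE 0.20, adjusted p = 0.0289 in limma), and the difference was -0.41 at 6 h, which did not pass, and -1.43 at 24 h (SE 0.18). Il1a fell by 0.82 (SE 0.17). Il1rn, which encodes the antagonist of the IL-1 receptor, fell by 0.88 (SE 0.13). Socs3, the feedback inhibitor of JAK signaling, fell by 0.84 (SE 0.12).

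**Figure D3:**
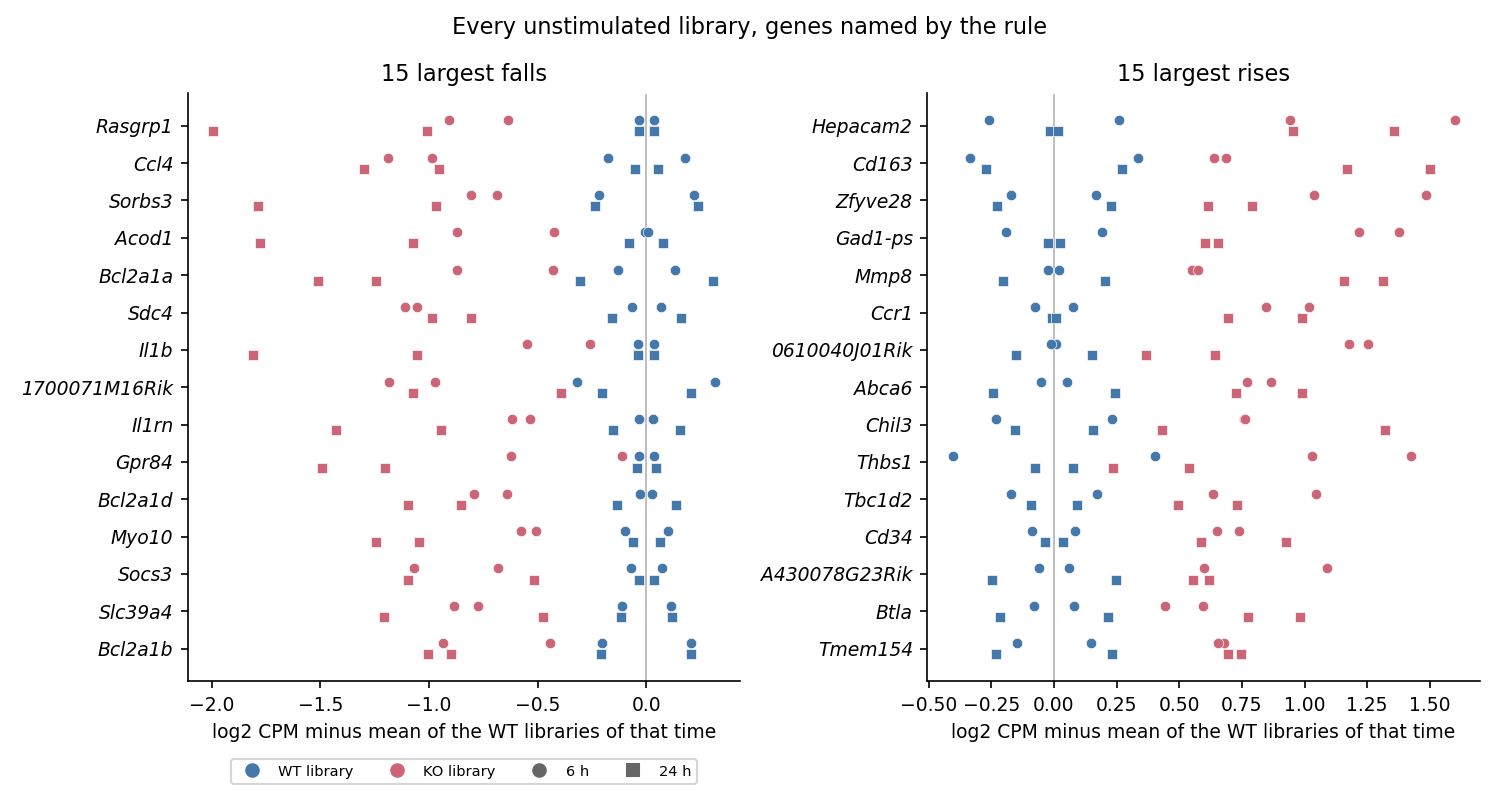
Every library for the 15 genes with the largest falls (left) and the 15 with the largest rises (right) over both times; the horizontal axes give log2 CPM minus the mean of the 2 NFAM1+/+ libraries of the same time, with circles for 6 h and squares for 24 h. The rule that chose the genes required the genotypes not to overlap at either time, so their separation is no result; NFAM1-/- libraries of 24 h lie farther out than those of 6 h for Il1b, Il1rn, Gpr84 and Acod1.

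NF-kB genes encode its subunits and the proteins that restrain or release them. Of 32 NF-kB subunits and regulators, 10 fell (1.57% of all genes tested), 0 rose (1.26%) and the median was -0.15. Inhibitors and brakes of the pathway were among them. Nfkbia, which encodes IkBα, was at 476 and 482 CPM against 449 and 369.7 CPM at 6 h, and at 302 and 283 CPM against 213 and 182 CPM at 24 h, a fall of 0.40 (SE 0.08, adjusted p = 0.0253 in limma). Tnfaip3, which encodes the ubiquitin-editing enzyme A20, was at 220.3 and 214 CPM against 198 and 155 CPM at 6 h, and at 210.4 and 228 CPM against 148 and 119 CPM at 24 h. It fell by 0.51 (SE 0.10), and its partner Tnip1 by 0.34 (SE 0.06). The atypical IkB genes Nfkbiz, Nfkbid and Bcl3 fell by 0.63, 0.42 and 0.34.

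Kinase and subunit genes belong to the same list. Ikbke, an IkB kinase-related kinase, was at 314 and 320.1 CPM against 253 and 227 CPM at 6 h, and at 169 and 162 CPM against 91.2 and 68.6 CPM at 24 h. The fall was 0.73 (SE 0.12), and at 24 h alone 1.06 (SE 0.11, adjusted p = 0.00177). Traf1, an adaptor of TNF receptors, fell by 0.69, N4bp1, an RNA-binding brake on the pathway, by 0.34 and Nfkb2, which encodes p100, by 0.28. Rela, the main transactivating subunit, had a log2 fold change of -0.11 (SE 0.05, adjusted p = 0.334 in limma), and Nfkb1, which encodes p105, of -0.17 (SE 0.07, adjusted p = 0.243). At 6 h alone Nfkb1 was at 556 and 561 CPM against 454 and 427 CPM, a fall of 0.34 (adjusted p = 0.0312), and at 24 h its libraries overlapped.

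The promoters of 16 of the 150 lower genes that could be matched by symbol to RefSeq (GRCm38.p6, 250 bases before to 50 after the start) hold the 10-base NF-kB consensus on either strand. That is 10.7% of them, against 7 of 112 higher genes (6.25%) and 448 of 9001 matched genes among those tested (4.98%). An AP-1 motif, TGANTCA, lies in 15 of the 150 (10.0%) and in 4.97% of the 9001, and the CRE TGACGTCA lies in 2 of the 150 (1.33%) and in 3.34%. No test was made of these shares. A match is a run of letters and does not show that a factor binds. The NF-kB consensus also lies in the promoter of Fcgr3, which rose (match starting at -152), whereas the 4 promoters printed below are all of genes that fell. The promoters of 4 named genes that hold the consensus are given to show where it lies, read 5′ to 3′ along the gene's strand with the consensus in capitals; overlapping matches of the 2 strands form 1 run of capitals in Tnip1 and in Cxcl2.
Sdc4 (GRCm38.p6, chr2:164443139-164443438, minus strand): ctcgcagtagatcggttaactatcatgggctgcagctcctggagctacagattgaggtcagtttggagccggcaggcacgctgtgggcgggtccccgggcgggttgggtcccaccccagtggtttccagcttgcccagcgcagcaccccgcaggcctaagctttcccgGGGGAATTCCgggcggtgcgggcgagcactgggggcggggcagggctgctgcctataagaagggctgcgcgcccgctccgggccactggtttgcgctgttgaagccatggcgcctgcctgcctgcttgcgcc
Tnfaip3 (GRCm38.p6, chr10:19015361-19015660, minus strand): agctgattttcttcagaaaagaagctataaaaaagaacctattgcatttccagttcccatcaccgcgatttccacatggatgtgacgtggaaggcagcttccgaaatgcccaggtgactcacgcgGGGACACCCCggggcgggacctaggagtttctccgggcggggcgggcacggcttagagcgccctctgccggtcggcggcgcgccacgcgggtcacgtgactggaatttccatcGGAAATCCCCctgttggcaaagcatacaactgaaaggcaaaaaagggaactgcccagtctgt
Tnip1 (GRCm38.p6, chr11:54962891-54963190, minus strand): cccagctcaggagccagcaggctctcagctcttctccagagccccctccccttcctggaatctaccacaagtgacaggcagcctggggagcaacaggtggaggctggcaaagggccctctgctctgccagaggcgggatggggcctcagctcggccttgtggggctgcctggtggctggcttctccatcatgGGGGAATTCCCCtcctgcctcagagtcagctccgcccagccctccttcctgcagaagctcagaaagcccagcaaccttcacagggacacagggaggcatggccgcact
Cxcl2 (GRCm38.p6, chr5:90903649-90903948, plus strand): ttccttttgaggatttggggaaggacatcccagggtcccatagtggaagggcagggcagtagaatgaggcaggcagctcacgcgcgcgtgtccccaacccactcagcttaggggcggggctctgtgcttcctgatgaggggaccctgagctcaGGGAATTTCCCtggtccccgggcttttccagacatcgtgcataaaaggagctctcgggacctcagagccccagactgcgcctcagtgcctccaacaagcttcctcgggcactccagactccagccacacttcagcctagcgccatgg
Counting the first base of the gene as 0, the match starts at -82 in Sdc4, at -125 and -12 in Tnfaip3, at -58 in Tnip1 and at -97 in Cxcl2.

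Sdc4, a heparan sulfate proteoglycan of the cell surface, was at 51.9 and 56.9 CPM against 26.1 and 25.2 CPM at 6 h, and at 43.1 and 34.6 CPM against 22.1 and 19.5 CPM at 24 h. The fall was 0.99 (SE 0.08, adjusted p = 0.000356 in limma). Sod2, the mitochondrial superoxide dismutase, fell by 0.57 (SE 0.06), and Acod1, which makes itaconate, by 1.04 (SE 0.17).

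Immediate early genes respond within minutes to a signal. Of 49 tested 8 fell (1.57% of all genes tested), 1 rose (1.26%) and the median was -0.18. Egr1 was at 39.0 and 40.8 CPM against 25.7 and 25.2 CPM at 6 h, and at 66.6 and 69.8 CPM against 33.4 and 36.7 CPM at 24 h. The fall in Egr1 was 0.80 (SE 0.07, adjusted p = 0.000473 in limma). Egr2 fell by 0.78 (SE 0.13), Maff by 0.71 (SE 0.10), Csrnp1 by 0.45 (SE 0.09) and Gadd45b by 0.59 (SE 0.11). Nr4a1 was at 207 and 211 CPM against 171 and 149 CPM at 6 h. Over both times, which includes 24 h values that bore on the choice of the title, Nr4a1 fell by 0.73 (SE 0.11, adjusted p = 0.00735 in limma). At 6 h alone the fall in Nr4a1 was 0.39 (adjusted p = 0.0434), where the adjusted p also uses the spread of the 24 h libraries grouped by title.

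A pair of phosphatase genes of this list that act on MAP kinases changed in opposite directions. Dusp2, a nuclear phosphatase, was at 62.5 and 63.9 CPM against 41.4 and 35.9 CPM at 6 h and fell by 0.76 over both times (SE 0.07, adjusted p = 0.000606 in limma). Dusp6, which inactivates ERK, was at 24.8 and 23.7 CPM against 39.3 and 44.9 CPM at 6 h, and at 51.8 and 48.7 CPM against 61.6 and 67.0 CPM at 24 h, a rise of 0.57 (SE 0.09, adjusted p = 0.00757). Fos had a log2 fold change of -0.07 (SE 0.09), at 136.5 and 132 CPM against 153 and 150.1 CPM at 6 h and 251 and 214 CPM against 192 and 182 CPM at 24 h, higher in NFAM1-/- at the first time and lower at the second. Its sign also turned with the libraries of conflicting labels left out (0.0631).

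**Figure D4:**
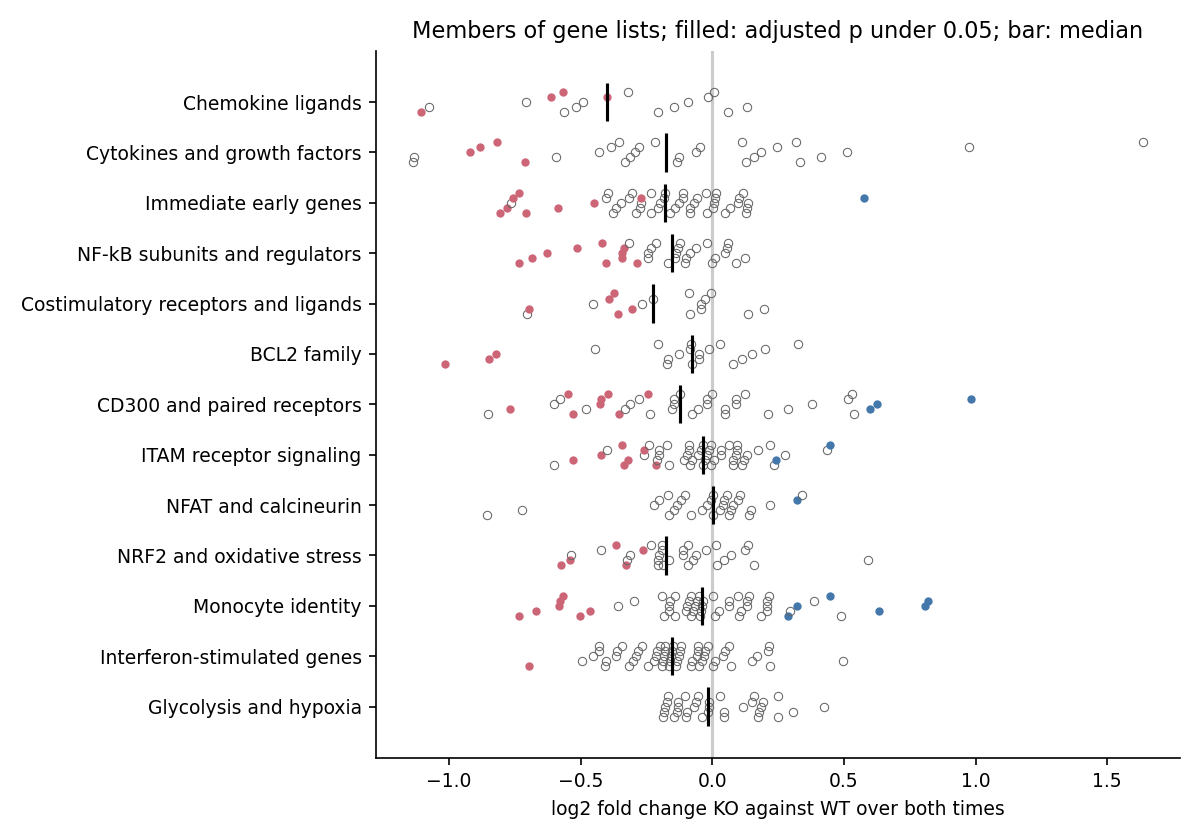
Log2 fold change of NFAM1-/- against NFAM1+/+ over both times (horizontal axis) for each tested member of 13 gene lists; filled points have an adjusted p under 0.05 in limma and black bars are list medians. Chemokine ligands have the lowest median, -0.40, NFAT and calcineurin genes are centred on 0.0039, and no glycolysis gene is filled.

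Genes of NFAM1's own pathway changed in part. Of 50 ITAM signaling genes 7 fell (1.57% of all genes tested), counting Nfam1 itself, 2 rose (1.26%) and the median was -0.03. The Src-family kinase gene Fgr fell by 0.33 (SE 0.07), Prkcd by 0.21 (SE 0.05), Malt1 by 0.34 (SE 0.06) and Pik3ap1, an adaptor of PI3K, by 0.42 (SE 0.07). Fcgr3, a low-affinity IgG receptor, rose by 0.45 (SE 0.05), from 82.8 and 94.4 CPM to 129.6 and 124 CPM at 6 h. Syk stood at 464 and 429 CPM against 441 and 448 CPM at 6 h, a log2 fold change of -0.01 over both times (SE 0.05, adjusted p = 0.934 in limma); its sign turned when libraries were centred on their medians (0.0044).

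NFAT and calcineurin genes gave 0 falls and 1 rise among 30 tested, near the 1.57% and 1.26% of all genes. Itpr1, a calcium channel of the endoplasmic reticulum, rose by 0.32 (SE 0.08). Nfatc1 was at 57.9 and 56.4 CPM against 56.7 and 64.0 CPM at 6 h, with a log2 fold change of 0.04 (SE 0.05, adjusted p = 0.768 in limma). Nfatc2 had one of 0.10 (SE 0.08). These are transcript levels, and the localization of NFAT proteins is not measured here. Of the 6 tested genes within 200 kb of Nfam1 none passed, and Tcf20, the nearest, had a log2 fold change of 0.03 (SE 0.06).

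Among survival genes the A1 group fell. Bcl2a1a, Bcl2a1b and Bcl2a1d, nearly identical copies that encode the anti-apoptotic protein A1, were the 3 of 20 BCL2 family genes that passed, and none rose. Over all genes tested 1.57% fell and 1.26% rose. Reads can be split between such copies, so their separate values are uncertain. Bcl2a1d was at 54.2 and 56.3 CPM against 35.4 and 31.9 CPM at 6 h, and at 29.3 and 24.2 CPM against 14.7 and 12.5 CPM at 24 h. Its fall was 0.85 (SE 0.09, adjusted p = 0.00119 in limma), with 1.01 for Bcl2a1a and 0.82 for Bcl2a1b.

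Surface receptors changed in both directions. Among 39 CD300 and paired receptor genes 8 fell and 3 rose, against 1.57% and 1.26% of all genes tested. The C-type lectin genes Clec4e, Clec4d, Clec4n and Clec4a1, of a cluster of myeloid pattern receptors, fell by 0.55, 0.35, 0.43 and 0.42. Clec4e was at 974 and 1079 CPM against 879 and 701 CPM at 6 h, and at 357 and 381 CPM against 243 and 208 CPM at 24 h. Cd33, an inhibitory sialic acid receptor, was at 29.7 and 33.1 CPM against 54.0 and 48.4 CPM at 6 h and rose by 0.60 (SE 0.07, adjusted p = 0.00216 in limma). Siglecf, which is also an eosinophil marker, rose by 0.98 (SE 0.21) from below 1 CPM at 6 h. Of 17 costimulatory genes 5 fell and 0 rose. Cd274, which encodes PD-L1, led them at 49.8 and 50.8 CPM against 31.3 and 28.6 CPM at 6 h and fell by 0.70 (SE 0.10), with Cd83, Icam1, Cd40 and Tnfrsf1b falling by 0.37, 0.39, 0.36 and 0.30.

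Monocyte identity genes went both ways, 7 lower and 6 higher of 54 tested, with a median of -0.04, and 41 did not pass. Over all genes tested 1.57% were lower and 1.26% higher. Ccr2, Chil3 and Thbs1, which are high in Ly6C-high monocytes, rose by 0.32, 0.82 and 0.81, and Treml4 and Nr4a1, which mark Ly6C-low monocytes, fell by 0.67 and 0.73. These genes are a choice and not the whole list, of which 29 of 54 lay below 0. Thbs1 passed narrowly (adjusted p = 0.0462 in limma) and no longer passed with the conflicting libraries left out. The 24 h values of Nr4a1 bore on the choice of the title. Cx3cr1, of the monocyte markers, had a log2 fold change of -0.18 (SE 0.05, adjusted p = 0.0979 in limma) and did not pass. Cd14 and Cebpb fell by 0.50 and 0.58. Chil3, a chitinase-like lectin, was at 695 and 503 CPM against 1001 and 1004 CPM at 6 h and at 134.1 and 108 CPM against 162 and 300.2 CPM at 24 h. The share of each monocyte subset was not measured. Csf1r, the receptor of macrophage colony-stimulating factor, had a log2 fold change of -0.19 (SE 0.06, adjusted p = 0.121 in limma).

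Other genes with large rises include Mmp8, a collagenase of neutrophil granules that was also a marker of neutrophils. Mmp8 was at 29.7 and 28.8 CPM against 42.9 and 43.5 CPM at 6 h, and at 79.5 and 105.2 CPM against 204 and 227 CPM at 24 h, where the summed neutrophil markers were higher too. It rose by 0.90 (SE 0.13, adjusted p = 0.00501 in limma) and was the only 1 of 18 neutrophil markers that passed over both times. At 24 h alone 2 of the 18 passed as higher, against 0.990% of all genes tested. Cd163, the scavenger receptor for haptoglobin-haemoglobin, rose by 1.00 (SE 0.19), the lipid transporter gene Abca6 by 0.84 (SE 0.11), Cd34 by 0.73 (SE 0.09) and the inhibitory receptor gene Btla by 0.70 (SE 0.11). Among the large falls were Rasgrp1, an activator of Ras, by 1.14 (SE 0.19), Gpr84, a receptor of medium-chain fatty acids, by 0.86 (SE 0.18), Myo10, an unconventional myosin, by 0.84 (SE 0.14) and the zinc transporter gene Slc39a4 by 0.84 (SE 0.14). Hepacam2 had the largest rise with a mean of at least 5 CPM, 1.21 (SE 0.19), from 0.77 and 1.10 CPM to 2.78 and 1.76 CPM at 6 h.

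Stress genes that passed all fell. The counts of this paragraph stand beside 1.57% lower and 1.26% higher over all genes tested. Of 32 genes of the NRF2 and oxidative stress list 5 fell and 0 rose, among them Slc7a11, the cystine transporter, at 134 and 127 CPM against 65.9 and 77.6 CPM at 6 h and 44.2 and 49.4 CPM against 42.9 and 38.1 CPM at 24 h. Slc7a11 fell by 0.54 (SE 0.12) and Nfe2l2, which encodes NRF2, by 0.33 (SE 0.07). Of 18 prostaglandin and leukotriene genes Pla2g7 and Ptgs2 fell by 0.74 and 0.79, and Hpgd, which degrades prostaglandins, rose by 0.60. Of 36 cholesterol and lipid genes Apoe rose by 0.31 and Nr1h3, which encodes LXRα, fell by 0.42. Of 12 MHC class II genes H2-DMa and H2-DMb1, which load peptide, rose by 0.31 and 0.32 and 0 fell. Toll-like receptor genes gave 3 falls among 32 (Cd14, Tlr1 and Irak3), integrin and adhesion genes 3 falls and 3 rises among 27, and macrophage maturation genes 3 falls and 2 rises among 47. None of 33 glycolysis, 41 proliferation and 37 endoplasmic reticulum folding genes passed. Of 57 interferon-stimulated genes 1 fell, Cd274, and 0 rose, which is near the shares over all genes. Yet 45 of the 57 lay below 0, against 5950 of all 12015 genes tested. The median of this list was -0.15, close to that of the NF-kB list, with -0.24 at 6 h and -0.07 at 24 h.

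At 24 h alone, 2 libraries against 2 in a fit of the 4 groups, 156 genes were lower (1.30%) and 119 higher (0.990%). With at least 2-fold change 26 were lower (0.216%) and 13 higher (0.108%). Dnah12, an axonemal dynein, was at 1.94 and 1.75 CPM against 0.318 and 0.351 CPM, 159 and 126 reads against 27 and 30, and fell by 2.46 (SE 0.26, adjusted p = 0.00232 in limma). The formyl peptide receptor genes Fpr1 and Fpr2, which sense bacterial peptides, fell by 2.29 (SE 0.43) and 1.68 (SE 0.22). Fpr2 was at 75.8 and 75.1 CPM in NFAM1+/+ and at 31.7 and 17.4 CPM in NFAM1-/- monocytes. Fpr1 was at 26.4 and 24.2 CPM against 10.0 and 2.68 CPM, so its NFAM1-/- libraries differed more from each other than the NFAM1+/+ pair did. Chac2 fell by 1.61 (SE 0.32). Ighv1-55, an immunoglobulin segment with near-identical relatives, was at 64 and 58 reads against 2 and 0.

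Of the 5 largest rises at 24 h, Lrr1 and Pgc rest on few reads. Lrr1 had 0 and 0 reads in NFAM1+/+ against 10 and 12 in NFAM1-/- libraries, and Pgc had 0 and 0 against 6 and 2. Esco2, a cohesin acetyltransferase of dividing cells, rose by 2.24 (SE 0.32) from 9 and 15 reads to 82 and 50 reads. Mmp13 rose by 2.12 (SE 0.40) and Ndnf by 2.01 (SE 0.31), the latter from 2.03 and 2.75 CPM to 8.55 and 10.6 CPM. Leaving out 1 library moved the number of lower genes called at 24 h between 8 (without library 44) and 60 (without library 43), and that of higher genes between 4 (without library 46) and 25 (without library 45).

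The effects at 6 and 24 h were compared directly. At 6 h in the same fit 38 genes were lower (0.316%) and 47 higher (0.391%). Of the 275 genes that passed at 24 h, 243 had the same sign at 6 h and 27 also passed there, which is 9.82% of the 275 and 31.8% of the 85 that passed at 6 h. No gene passed the test of the difference between the times in limma (0 genes, lowest adjusted p = 0.163, 1075 at an unadjusted p under 0.05); without library 43 there were 15. The median over the 189 lower genes was -0.37 on the log2 scale at 6 h and -0.47 at 24 h, and over the 151 higher genes 0.37 and 0.38. All 189 lower genes and 150 of the 151 higher genes had libraries that did not overlap between genotypes at either time, which their low p over both times largely fixes and which is no result. Over all genes tested 840 (6.99%) did so with lower and 876 (7.29%) with higher levels in NFAM1-/- monocytes.

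**Figure D5:**
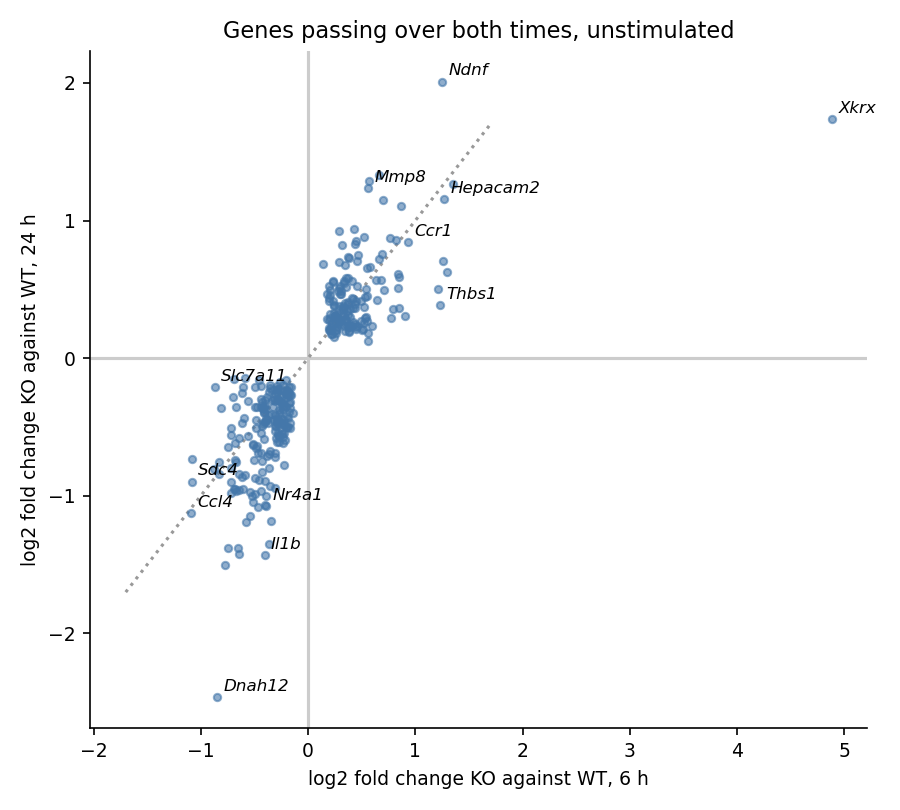
Log2 fold change of NFAM1-/- against NFAM1+/+ at 24 h (vertical axis) against that at 6 h (horizontal axis) for the 340 genes with an adjusted p under 0.05 over both times; the dotted line marks equal change. These genes were chosen on both times, so their shared sign is no result; Il1b (-0.41 and -1.43) lies farther from 0 at 24 h and Slc7a11 (-0.87 and -0.21) farther from 0 at 6 h, while Xkrx, far right, rests on 4 and 0 reads in NFAM1+/+ at 6 h.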

How the data were processed

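RNA of unstimulated monocytes was sequenced from non-stranded libraries of polyadenylated RNA as paired reads. Per the methods and the submitters' processing notes, the authors checked reads with FastQC, aligned them with STAR (GRCm39), used Rsubread for counting and edgeR for scaling; versions are not given in the sources used here. The authors deposited log2 CPM for 13085 genes. All values correspond to whole reads plus 0.5 over a scaled library size (100% in each library), from which reads were recovered; the reads on listed genes were 0.756 to 0.788 of that size in the libraries used. Of the symbols, 17 read as dates and cannot be identified.

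A gene was tested where 2 or more of the 8 libraries reached 1 CPM, which kept 12015 and left out 1070. limma 3.58.1 in R 4.3.3 fitted genotype (from the title) with time as a block, 5 residual degrees of freedom and a prior variance with trend. A second fit of 4 groups gave 6 h, 24 h and their difference. The SE and p at either time therefore use the spread between libraries of both times, grouped by title. Called genes changed at least 2-fold at an adjusted p under 0.05, the study's thresholds; "fell" and "rose" mean an adjusted p under 0.05. All fold changes are NFAM1-/- against NFAM1+/+ on the log2 scale. The members and gene lists were chosen with earlier results of these data known. Named genes are the 15 largest falls and rises that do not overlap at either time with a mean of at least 5 CPM, the 5 largest falls and rises called at 24 h, up to 8 members of each gene list with the smallest p, the genes within 200 kb of Nfam1 (GENCODE vM21, names only), Nfam1, Nr4a1 and Ccl4; Xkrx, Gm45540, Syk, Nfatc1, Nfatc2, Rela, Nfkb1, Csf1r and Fos were added for their role or as called genes. In simulated reads 99% of 1.5-fold and 100% of 2-fold changes passed over both times, with 11 other genes, among 12015. The simulation gave every gene the same dispersion, 0.01, and changed only genes with a mean of at least 5 CPM. Its libraries were independent and had no conflicting labels. These shares thus do not describe how often such changes pass in these data. Alternatives covered the genotype field, filters, scaling, variance models and left-out libraries. The values of some list members are not reported here, although the counts include them.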

Additional observations from a re-analysis of the deposited data

How the results depend on the processing

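Over both times all 340 genes kept their sign under each alternative that tested them by title. Of these, 4 lower and 7 higher genes fall under a mean of 5 CPM and were not tested there. With the genotype from the tag 182 of 189 and 150 of 151 kept it. The genes were chosen on these same libraries, and some alternatives leave the fold change as it was. The kept signs are thus largely fixed in advance and are no result. The number called moved, from 6 lower and 4 higher, to 0 and 0 with the tag, 1 and 2 with the conflicting libraries left out, 0 and 0 with no trend in the prior variance, 13 lower with voom weights from recovered reads, 19 and 8 with these weights and no trend (chosen after seeing the data), 0 and 0 with no term for time, 1 and 0 tested against a fold change of 1.2, 1 higher with a mean of at least 5 CPM, and 189 and 151 with no minimum fold change. At 24 h, from 26 lower and 13 higher, it moved to 1 and 0 with the tag, 12 lower with the conflicting libraries left out, 2 and 2 with no trend, 6 higher with a mean of at least 5 CPM, 5 higher with all 16 libraries or with only the 4 libraries of 24 h, and 156 and 119 with no minimum fold change. The difference between the times had 3 genes with the conflicting libraries left out and 4 with no trend, against 0. Leaving out 1 library gave 2 (without library 46) to 12 (without library 3) lower and 3 to 9 higher genes called over both times, 8 to 60 lower and 4 to 25 higher at 24 h, and 0 to 15 for the difference. The genes passing over both times numbered 88 (without library 1) to 219 lower and 66 (without library 4) to 148 higher. The cause of these moves was not tested, except that a fold threshold or left-out libraries change the counts by construction.

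With the tag the sign turned for Il1b (0.0046), Cd300ld (0.0311), Traf1 (0.0146), Cd14 (0.0164), Syk (0.0249), Rela (0.0049) and Fos (0.16), and at 24 h for Ighv1-55 (1.14), Dnah12 (0.0044), Fpr1 (1.01), Fpr2 (0.44), Chac2 (0.45), Lrr1 (-0.21), Esco2 (-0.0872), Mmp13 (-0.40) and Ndnf (-0.37). Syk also turned with the conflicting libraries left out (0.0076), with centring (0.0044) and without library 1 (0.0079), 45 (0.0028) or 46, over a range of -0.0484 to 0.0247 with 1 library left out, and Fos with the conflicting libraries left out (0.0631) and without library 44, over a range of -0.1271 to 0.0253. Scaling by quantiles or medians shifted the median of all genes by -1e-04 and 0.02. Of the 30 genes with the largest changes, 20 still passed with the conflicting libraries left out and 17 with all 16 libraries. No paired analysis was possible because the groups share no replicate number. Depth does not limit genes above a few CPM; genes with under 100 reads at 24 h, such as Lrr1, Pgc and Ighv1-55, are limited by it.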

Other observations

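The split of the 24 h libraries by tag carried genes that the split by title did not. Collagen genes were lower in the libraries tagged KO, Col1a1 at 0.307 and 0.517 CPM (libraries 43 and 44) against 1.83 and 6.39 CPM (libraries 45 and 46), and Col1a2 at 0.261 and 0.761 against 2.00 and 5.19 CPM. At 6 h, where title and tag agree, Col1a1 was at 0.146 and 0.361 CPM in NFAM1+/+ and at 2.25 and 16.8 CPM in NFAM1-/- libraries. Genes of mature dendritic cells were higher in the libraries tagged KO, Ccr7 at 35.6 and 54.5 CPM against 22.2 and 23.8, and Fscn1 at 21.5 and 37.0 against 14.1 and 15.1. Of 41 proliferation genes 19 were higher in both libraries tagged KO (46.3%, against 13.6% of all genes tested) and 0 lower in both (11.6% of all genes), while 15 did not overlap by title (36.6%, against 46.0% of all genes). These genes were chosen after their values were seen. None of them passed by tag in limma (0 genes other than Ighv1-18 at an adjusted p under 0.05, 287 at an unadjusted p under 0.05).

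The same genes were read in the libraries stimulated with IFN-γ plus CD40L, a comparison chosen after seeing the data. Of the 189 genes lower without stimulus 146 were lower with it, at a median log2 fold change of -0.14, and of the 151 higher genes 99 were higher, at a median of 0.09, where the median of all genes was 0.011. With stimulus 15 of the 189 passed as lower (7.94%) and 10 of the 151 as higher (6.62%), against 115 lower and 111 higher of 12782 genes in all. In a fit of all 16 libraries, some of which share animals, the genotype effect differed with stimulus for 27 of 12782 genes in limma. Among them were 12 of the 189 and 5 of the 151. The 189 and 151 were chosen on their values without stimulus, which the difference also uses. Smaller effects with stimulus, and more genes passing among them, are therefore partly built in. Gpr84 went from -0.86 to 0.37 (difference 1.23, SE 0.19, adjusted p = 0.0335), Ikbke from -0.73 to 0.18 (difference 0.91, SE 0.14), Socs3 from -0.84 to 0.07 (difference 0.91, SE 0.15) and Maff from -0.71 to 0.04 (difference 0.74, SE 0.11). Of the higher genes, Hepacam2 went from 1.21 to -2.60 (difference -3.81, SE 0.64, adjusted p = 0.0335 in limma). Nr4a1, whose unstimulated 24 h values bore on the choice of the title, was -0.73 and -0.96 (difference -0.22, SE 0.19, adjusted p = 0.65). The number of genes whose effect differed was 83 with quantile normalization, 0 with no trend in the prior variance and 0 with the tag, so it depends on the processing. Title and tag also conflict in 2 of the stimulated 24 h libraries.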
